A study of Mus musculus with 16 samples.

Results

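The Paneth cell defensins and granule products described here were 10 mouse genes, taken by symbol from a table of 46078 genes counted by RNA sequencing of ileum mucosa. Of these, 5 were alpha-defensins (Defa17, Defa22, Defa24, Defa29 and Defa30), and the other 5 were Lyz1, Mmp7, Ang4, Itln1 and Mptx2. The 16 libraries came from 4 mice in each of 4 groups: male WT, male Slfn3KO, female WT and female Slfn3KO. All mice were on a C57Bl/6 background, and their age was 8 weeks in the sample labels and older in the methods of the study. Slfn3KO mice carried a germline deletion of Slfn3, a Schlafen family gene of the intestinal mucosa and of lymphocytes, so the deletion was present in all cell types of the mucosa, and WT mice were littermates. The comparison of the genotypes asked which mucosal RNAs differed without Slfn3, in each sex and in both.

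Paneth cells sit at the base of small intestinal crypts, between the stem cells, and release granules of antimicrobial proteins into the crypt lumen. Alpha-defensins, called cryptdins in the mouse, are made as inactive precursors with a signal peptide, an acidic pro-segment and a mature peptide held by disulfide bonds. In the mouse, matrilysin (Mmp7) cleaves the precursors to their active form. Lysozyme (Lyz1) cuts peptidoglycan of the bacterial wall, angiogenin 4 (Ang4) is a bactericidal ribonuclease, intelectin 1 (Itln1) is a lectin that binds microbial glycans, and mucosal pentraxin 2 (Mptx2) is a pentraxin of Paneth cells.

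The alpha-defensin genes lay in a cluster on mouse chromosome 8, and the 5 members lay between bases 21134642 and 21735471 (mm10). Each had 2 exons, both with coding sequence. The coding sequences of Defa24, Defa30 and Defa22 and the last 150 coding bases of Defa29 are shown because shared sequence limits how reads can be assigned to one gene, and because Defa29 has a cysteine pattern of its own. Letters are from GENCODE M21 (GRCm38) without the stop codon, and capitals mark the in-frame cysteine codons.
Defa24 (chr8:21734494-21735471, plus strand): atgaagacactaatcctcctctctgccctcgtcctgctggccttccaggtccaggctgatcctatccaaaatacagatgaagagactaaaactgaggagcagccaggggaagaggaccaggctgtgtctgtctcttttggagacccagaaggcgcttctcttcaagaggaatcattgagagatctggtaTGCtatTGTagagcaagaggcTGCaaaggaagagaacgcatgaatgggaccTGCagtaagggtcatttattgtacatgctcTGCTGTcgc
Defa30 (chr8:21134642-21135598, plus strand): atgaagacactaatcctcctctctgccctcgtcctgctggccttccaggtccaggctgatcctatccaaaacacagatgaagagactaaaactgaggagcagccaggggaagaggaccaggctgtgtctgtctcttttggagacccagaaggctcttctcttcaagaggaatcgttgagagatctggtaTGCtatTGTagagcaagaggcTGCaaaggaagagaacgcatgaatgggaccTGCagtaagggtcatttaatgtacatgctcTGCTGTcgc
Defa22 (chr8:21162277-21163249, plus strand): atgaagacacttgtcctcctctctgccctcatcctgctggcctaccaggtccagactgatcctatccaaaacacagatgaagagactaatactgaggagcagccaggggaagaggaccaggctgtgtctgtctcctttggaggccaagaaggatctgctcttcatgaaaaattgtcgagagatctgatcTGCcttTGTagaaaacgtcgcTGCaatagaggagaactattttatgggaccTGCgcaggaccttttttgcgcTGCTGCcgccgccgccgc
Defa29 (chr8:21325887-21327020, minus strand; coding bases 199 to 348): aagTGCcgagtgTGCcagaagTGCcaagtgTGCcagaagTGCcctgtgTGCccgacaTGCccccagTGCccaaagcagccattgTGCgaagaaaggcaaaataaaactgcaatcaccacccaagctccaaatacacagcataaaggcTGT
Defa24 and Defa30 were identical at 275 of 279 aligned bases (98.6%), and Defa17 (chr8:21655780-21656735) was 97.1% identical to Defa30. Defa22 was 81.2% identical to Defa24. These 4 had 6 cysteine codons each, the number of the disulfide-bonded alpha-defensin fold, whereas Defa29 had a longer coding sequence (348 bases) with 11 cysteine codons, the pattern of cryptdin-related sequence peptides.

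The other 5 genes lay elsewhere: Itln1 (chr1:171518122-171535294) and Mptx2 (chr1:173274382-173277777) on chromosome 1, Mmp7 at chr9:7692090-7699585, Lyz1 at chr10:117287796-117292868 and Ang4 at chr14:51763878-51773590. Mmp7 was on the plus strand and the others on the minus strand.

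The reads were 50 bases long, and reads that aligned to several places were not counted, so sequence shared between genes can lower a count. Of the 50-base windows in the annotated transcripts of Defa17, 92.0% also occurred in a transcript of another gene, mostly Defa3. The share was 74.9% for Defa22, mostly with Defa21, 52.4% for Defa30, 43.4% for Defa29 and 28.1% for Defa24. The non-defensin genes shared far less: 17.99% of windows for Mptx2 with Mptx1, 16.1% for Lyz1 with Lyz2, 7.36% for Mmp7, 4.70% for Ang4 and 0.972% for Itln1. Of 39 rows whose symbol begins with Defa, 12 had 0 counts in all 16 libraries, among them Defa2, Defa20, Defa33 and Defa37, in which every window occurred in another gene. Sharing and count did not match row by row, since Defa32, with every window shared, held 30 counts and Defa5, with 0.306% of its windows found once, held 9862. A 0 in a row whose every window is shared was therefore not read as absence of the RNA.

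All 10 genes passed the filter on low counts. Levels are CPM, read counts scaled to the depth of the library with TMM factors, and CPM per 1000 bases of exon length gave the order of the genes over the 16 libraries. Defa24 stood first (median 4285, range 810 to 10270.4), above Lyz1 (median 1811) in 16 of 16 libraries. Defa30 (median 1032) and Defa22 (median 984) followed, and Defa30 was the higher of the pair in 11 of 16 libraries. Itln1 (median 753) was above Mptx2 (median 292.0) in 16 of 16. Defa17 (median 292), Defa29 (median 231) and Ang4 (median 228) lay close together, with Defa29 above Ang4 in 7 of 16 libraries. Mmp7, the processing enzyme, was lowest (median 97.2). The order depended on the length used: per 1000 windows found in no other gene, Defa17 moved from rank 7 to rank 3 (median 4139) and Lyz1 from rank 2 to rank 5 (median 2246), with Defa24 still first (median 6750).

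Before the genotypes were compared, the labels were checked. Slfn3 itself was barely detected, with 0 to 19 counts in WT libraries and 0 to 2 in Slfn3KO libraries, so it checked the genotype labels weakly. In 4 of 16 libraries, the WT libraries numbered 3 and 4 of each labelled sex, Xist and Ddx3y went against the sex label. Xist was at 437 and 401 CPM in male WT 3 and 4, and at 0.124 and 0 CPM in female WT 3 and 4. Ddx3y was at 0 and 0.0415 CPM in the former, and at 42.0 and 49.7 CPM in the latter. By these transcripts, each WT group of a labelled sex mixed both sexes. These libraries are called by their labels, and the edgeR comparisons of the members, their correlations and the marker lists that changed direction are also given without them. The 16 libraries held between 20823279 and 30813117 counts.

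With both labelled sexes together, the Paneth cell genes had higher mean levels in Slfn3KO mice in comparison to WT mice, by 1.79-fold (Mmp7) to 2.63-fold (Ang4), but none passed the test across all genes. The median log2 fold change of the 10 genes was 1.07, against 0.00 over all 14822 genes tested. At an adjusted p under 0.05 and at least 1.5-fold (edgeR, quasi-likelihood test, Benjamini-Hochberg), 0 of 10 members were called, and 0% of all genes were. Without adjustment, 8 of 10 had p under 0.05 and were at least 1.5-fold higher, all but Mmp7 and Mptx2, against 1.65% of all genes. Without the WT libraries numbered 3 and 4 this count was 2 of 10 (Defa22 and Ang4), again against 1.65%. The 10 differences were still positive, between 0.52 (Mptx2) and 1.05 (Defa22) on the log2 scale, with a median of 0.74. That fit also had fewer WT mice, and whether the count fell for this reason or through the libraries themselves was not tested. In bulk mucosa, more Paneth cells and more RNA per Paneth cell cannot be told apart.

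Ang4 had the highest pooled log2 fold change of the members, 1.397 (SE 0.37, edgeR adjusted p = 0.327). In WT libraries 1 to 4 it was at 178, 167, 26.1 and 66.4 CPM in males and 34.3, 77.2, 79.5 and 72.5 CPM in females. In Slfn3KO libraries it was at 142, 249.6, 172 and 166 CPM in males and 366, 279, 156 and 299 CPM in females. The genotypes overlapped only because male WT 1 and 2 reached into the Slfn3KO range, and 4 of 8 Slfn3KO libraries were above the highest WT library. With DESeq2 in place of edgeR, Ang4 was the 1 member called (adjusted p = 0.0280), against 0.105% of genes called higher. For no member did all 8 Slfn3KO libraries exceed all 8 WT libraries, as was the case for 0.0202% of genes.

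**Figure D1:**
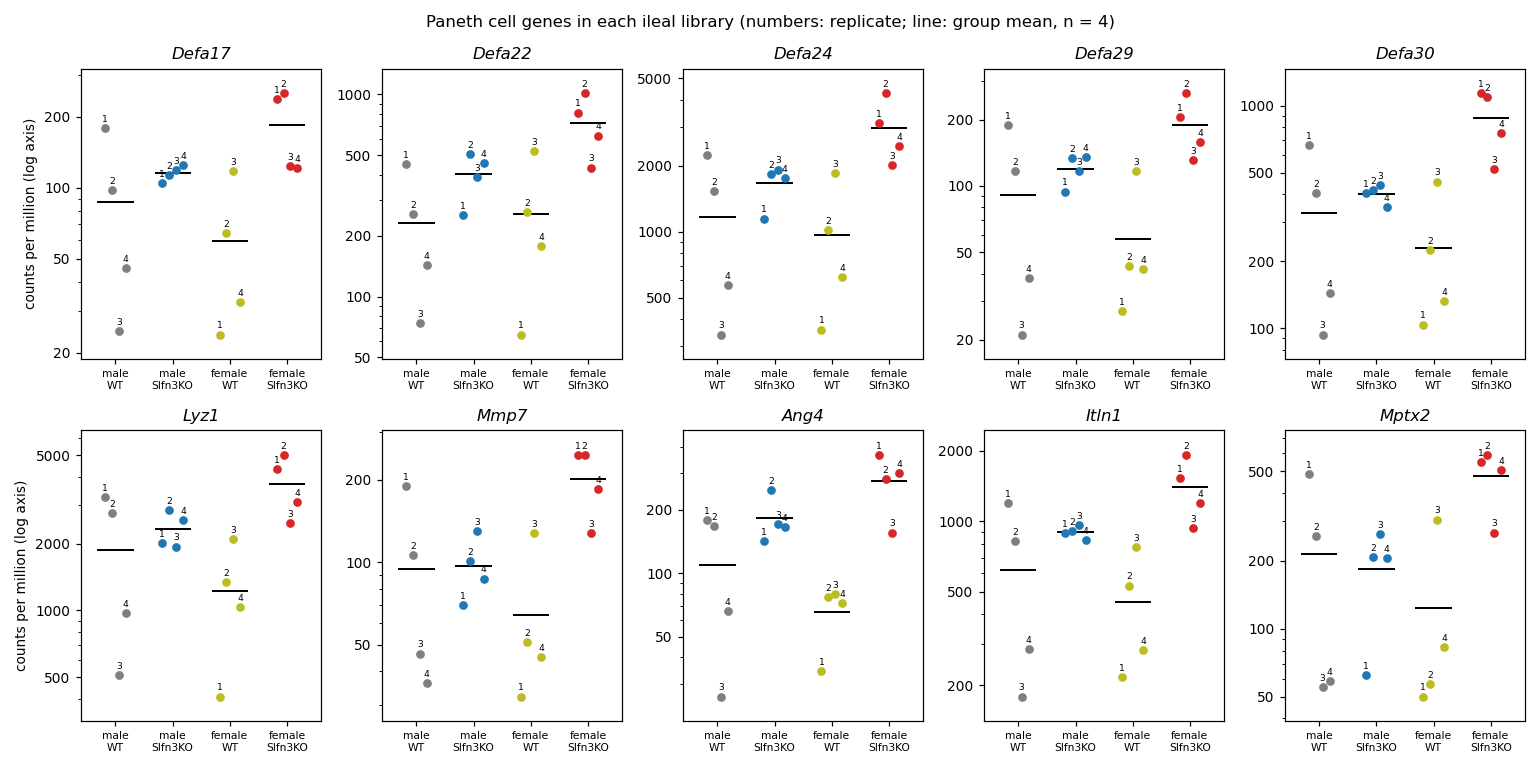
CPM (TMM-scaled, log axis) of the 10 Paneth cell genes in each library, with the replicate number beside each point and a line at the mean of the 4 mice in a group. In all 10 panels the WT groups are spread widely, with male WT 3 and 4 and female WT 1 and 4 among the lowest libraries and female Slfn3KO 1 and 2 at or near the top.

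The spread among WT libraries was shared by the members. In male WT 3, male WT 4 and female WT 1, all 10 genes ranked among the 4 lowest of the 16 libraries, and in female WT 4 this held for 9 of 10. In female Slfn3KO 1 and 2, all 10 ranked among the 4 highest. Male WT 1 had 8 of 10 among the 4 highest. The 10 genes together took 0.107% (female WT 1) to 1.76% (female Slfn3KO 2) of a library's counts.

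In labelled females, all 10 genes had higher means in Slfn3KO mice, from 2.80-fold (Defa22) to 4.15-fold (Ang4), with a median log2 fold change of 1.64 against -0.01 over 14064 genes. At the adjusted threshold 0 of 10 were called by edgeR (adjusted p 0.217 to 0.271), as were 0% of all genes. Unadjusted, 10 of 10 had p under 0.05 and at least a 1.5-fold higher level, against 4.02% of genes. The members varied together and were chosen with earlier results of these data known, so these are not 10 independent results. In 8 of 10 members, all but Defa22 and Mptx2, each of the 4 female Slfn3KO libraries was above each of the 4 female WT libraries, against 4.86% of genes. DESeq2 called the same 8 members (adjusted p 7.75e-07 for Ang4 to 0.0293 for Defa17), against 1.19% of genes called higher, while giving Defa22 an adjusted p of 0.0735 and Mptx2 none.

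The alpha-defensins showed the female pattern most plainly in Defa30. It was at 104, 225, 456 and 132 CPM in female WT 1 to 4 and at 1145, 1098, 519 and 754 CPM in female Slfn3KO 1 to 4, a log2 difference of 1.93 (SE 0.48). The closest approach was between female WT 3 and female Slfn3KO 3. Defa24, the most abundant member per length, was at 358, 1021, 1846 and 623 CPM in female WT and 3144, 4303, 2005 and 2452 CPM in female Slfn3KO mice (log2 difference 1.62, SE 0.48). Defa22 overlapped by one library, since female WT 3 (525 CPM) lay above female Slfn3KO 3 (434 CPM). Defa29, with its different cysteine pattern, had 27.0, 43.4, 117 and 42.0 CPM in female WT and 205, 265, 131 and 159 CPM in female Slfn3KO mice (log2 difference 1.72, SE 0.44). Defa17 had the narrowest gap among the 4 defensins that did not overlap, with a highest female WT library at 118 CPM and a lowest female Slfn3KO library at 121 CPM.

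The non-defensin genes, whose windows were less often shared with another gene than those of the defensins, separated the female genotypes in 4 of 5 cases. Lyz1 was at 409.8, 1340.4, 2103 and 1032 CPM in female WT and 4348, 5032, 2475 and 3064 CPM in female Slfn3KO mice (log2 difference 1.60, SE 0.46). Itln1 averaged 1394 ± 428 CPM (SD, n = 4) in Slfn3KO females, in comparison to 451 ± 255 CPM (SD, n = 4) in WT females. Each female Slfn3KO library was above each female WT library in both. Mmp7 was at 32.3, 51.3, 128 and 45.0 CPM in female WT and 247, 247, 128 and 186 CPM in female Slfn3KO mice, with female WT 3 just under female Slfn3KO 3. Ang4, at a log2 difference of 2.05 (SE 0.33), reached 79.5 CPM at most in WT and was at 156 CPM or more in Slfn3KO mice. Mptx2 had 50.04, 56.8, 305 and 82.8 CPM in female WT and 547, 592, 267 and 505 CPM in female Slfn3KO mice, and overlapped through female WT 3 alone.

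Female WT 3, one of the libraries whose sex transcripts went against the label, was the highest female WT library for all 10 genes. Without the WT libraries numbered 3 and 4, 10 of 10 members did not overlap, but 2 WT libraries against 4 left 18.6% of all genes not overlapping. In that fit 10 of 10 had an unadjusted edgeR p under 0.05 and were at least 1.5-fold higher, against 8.64% of genes. The log2 differences were 1.88 (Itln1) to 3.15 (Mptx2), with adjusted p of 0.0779 to 0.141 (edgeR).

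In labelled males, the edgeR test called 0 of 10, adjusted (0% of genes) or unadjusted (0.779% of genes higher), and 0 of 10 members had all Slfn3KO libraries above all WT libraries (1.13% of genes). Log2 fold changes ran from -0.21 (Mptx2, SE 0.73) to 0.81 (Defa22, SE 0.49), with adjusted p of 0.925 to 0.993. The male WT libraries fell far apart: Lyz1 was at 3246, 2734, 513 and 975 CPM in male WT 1 to 4, on both sides of the 2019.9, 2835, 1941 and 2559.8 CPM of the Slfn3KO males. Defa24 was at 2227, 1526, 339 and 572 CPM in male WT and 1148, 1832, 1920.1 and 1759 CPM in male Slfn3KO mice. Itln1 was at 1194, 825, 179 and 286 CPM in male WT and 889, 906, 963 and 829 CPM in male Slfn3KO mice. In all 3 genes, male WT 3 and 4 lay below every male Slfn3KO library, and male WT 1 lay above every one. Mptx2 was at 487, 257, 55.1 and 58.8 CPM in male WT and 62.1, 207, 264 and 205 CPM in male Slfn3KO mice. Without male WT 3 and 4, the difference was negative in 8 of 10 members, all but Defa22 (0.20) and Ang4 (0.09), down to -1.003 for Mptx2, still without a call. Of these 8, Mptx2 was negative with all libraries too. With the replicate number as a block, all 10 male differences were positive, from 0.33 (Mmp7) to 1.10 (Defa22). None was called by edgeR (adjusted p 0.745 to 0.947), and no label says that same-numbered mice were paired.

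**Figure D2:**
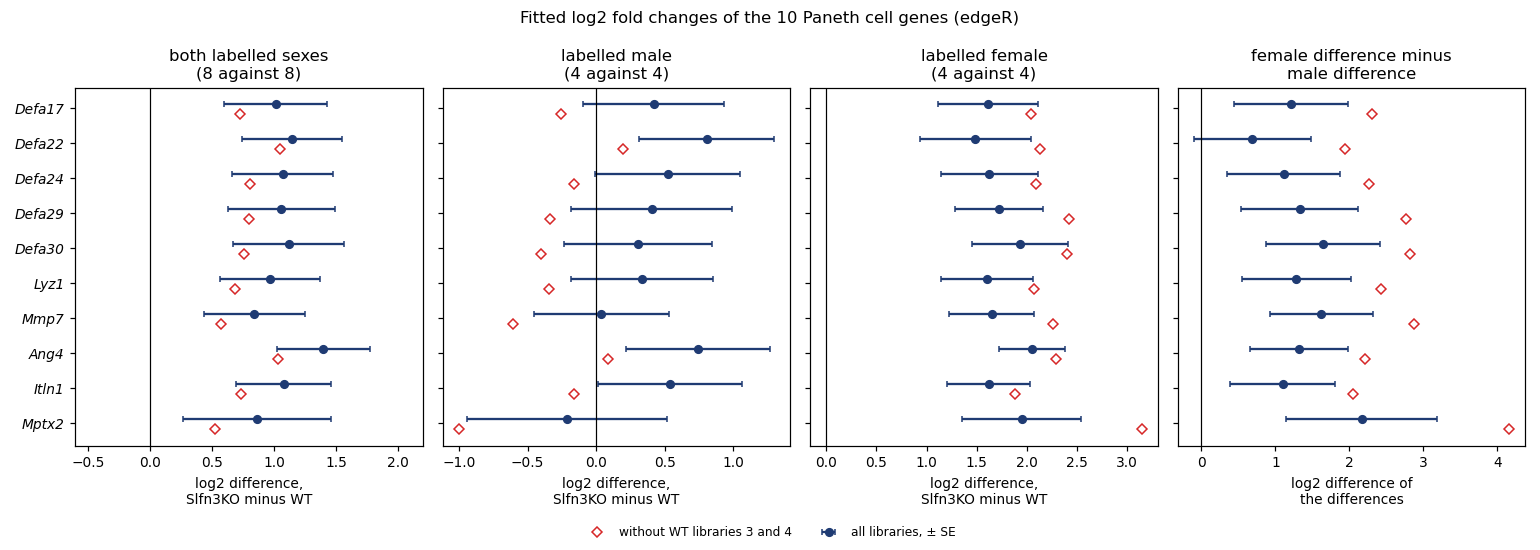
Fitted log2 fold changes of the 10 genes (points, with bars of 1 SE) for both sexes, males, females and the female minus male difference, and the same values without the WT libraries numbered 3 and 4 (open diamonds). Female differences lie between 1.49 and 2.05 with all libraries, male differences between -0.21 and 0.81, and the diamonds lie below 0 for 8 of 10 genes in males.

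The difference between the sexes was tested as an interaction. It was positive for all 10 members, from 0.69 (Defa22, SE 0.80) to 2.17 (Mptx2, SE 1.02) on the log2 scale, meaning a larger Slfn3KO difference in labelled females. One library weighed heavily: without male WT 1 the values were 0.12 for Defa22, 0.55 for Itln1, 0.56 for Defa17 and 1.36 for Mptx2, and without female WT 3 they were 1.31, 1.49, 1.78 and 3.13. The edgeR test across all genes called 0 of 10 members (adjusted p 0.441 to 0.727) and 0% of genes. Without adjustment 1 of 10 members, Mmp7, passed, against 3.2% of genes, with an edgeR p of 0.0352 in the fit across all genes. Without the WT libraries numbered 3 and 4, 4 of 10 were called (Defa29, Defa30, Mmp7 and Mptx2, edgeR adjusted p 0.0320 to 0.0433), against 1.48% of genes called higher, and the 10 values lay between 1.95 and 4.16. Each WT arm then held 2 mice. Genes of the lists read below were also called in that fit, counting either direction. These were 2 of 10 other Paneth cell products tested, 1 of 23 fate, secretion and niche genes and 1 of 12 other Defa rows. So were 1 of 8 goblet cell and 1 of 7 distal enterocyte genes. The crypt stem cell, proximal enterocyte, B cell follicle, macrophage and smooth muscle lists had 0 calls.

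The members varied together over the 16 libraries. Pearson correlations of log2 CPM between members had a median of 0.944 over 45 pairs (n = 16 libraries), and 39 pairs were above 0.9. The lowest was between Ang4 and Mptx2 (0.819) and the highest between Defa30 and Itln1 (0.983), a defensin and a lectin. Without the WT libraries numbered 3 and 4 the median was 0.943, from 0.827 to 0.981 (n = 12 libraries). These values describe libraries that differ in group, sex label and depth, and pairs of defensins also share sequence. The ratio of Defa24 to Lyz1 counts kept between 0.558 and 0.989 in all libraries, while Lyz1 itself spanned 409.8 to 5032 CPM.

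The 8 other genes most like the mean of the members over the 16 libraries (Pearson's r of log2 CPM) were Habp2 (0.978), Pla2g2a (0.973), Zbtb8a (0.963), Defa21 (0.952), Defa26 (0.948), Tmed6 (0.947), Clps (0.946) and Wnt3 (0.944). Over the 12 libraries without WT 3 and 4, these correlations lay between 0.906 and 0.975. Pla2g2a is the gene of a secreted phospholipase A2, Clps that of a colipase, and Wnt3 that of a ligand that Paneth cells supply to stem cells. RNA alone was measured, so whether these mice made the proteins is not shown. Habp2, a hyaluronan-binding serine protease, had 7.83 CPM on average in WT and 16.4 CPM in Slfn3KO mice (log2 difference 1.04, SE 0.40, edgeR adjusted p = 0.334).

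The listed products outside the 10 genes, some of which other cells also make, did not share one direction. Of 12 listed products 10 were tested, and 5 were higher and 5 lower in Slfn3KO mice, with a median log2 fold change of 0.23 and none called. Higher were Habp2, Clps, Pla2g2a, Mptx1 and Nupr1, and lower were Lyz2, Reg3g, Reg3b, Reg3a and Ang. Habp2 was the highest and Lyz2 the lowest (-1.13, SE 0.49). Once the WT libraries numbered 3 and 4 were left out, 7 were higher and 3 lower (median 0.19). Reg3g was then the lowest (-0.73), and Lyz2 was higher in Slfn3KO mice. Lyz2, the lysozyme of macrophages, is a close paralog of Lyz1, and it was at 70.3 CPM on average in WT and 32.2 CPM in Slfn3KO mice. Reg3g, a bactericidal lectin made by enterocytes and Paneth cells, was at -0.65 (SE 0.59), and Mptx1 at 0.75 (SE 0.58) on 0.961 CPM in WT. Among 34 other Defa rows, 11 were tested, 10 of them higher in Slfn3KO mice, with a median log2 fold change of 1.05 and none called. Defa-ps7, a pseudogene at 0.1004 to 0.767 CPM in WT and 0.793 to 2.86 CPM in Slfn3KO mice, was the highest (1.82, SE 0.35) and Defa35 the lowest (-0.43, SE 0.997).

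For Paneth cell fate, secretion and niche, of 24 listed genes 23 were tested, with 18 higher, a median log2 fold change of 0.15 and none called. Atoh1, the factor for all secretory lineages, was at 0.20 (SE 0.12), Gfi1 at 0.11 (SE 0.14), and Xbp1, the factor of the secretory stress response, at -0.03 (SE 0.08). Sox9, which Paneth cells need, was at 0.82 (SE 0.29) and Wnt3, the highest of the list, at 1.05 (SE 0.34). Lrrk2, a kinase of lysozyme sorting that B cells also express, was the lowest (-2.60, SE 0.91). Once the WT libraries numbered 3 and 4 were left out, Dll1 was the lowest (-0.37). Lrrk2 was then at 2.31 in males and -0.62 in females.

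The crypt base also holds stem cells. Of 8 crypt stem cell genes, 7 were higher in Slfn3KO mice, with a median log2 fold change of 0.71 and none called. Lgr5, the stem cell receptor, was the highest at 1.19 (SE 0.42) and Axin2 the lowest at -0.12 (SE 0.17). Lgr5 was at 0.502, 6.43, 6.75 and 3.28 CPM in female WT and 14.4, 18.2, 8.66 and 11.3 CPM in female Slfn3KO mice. Olfm4, a secreted protein of stem cells, was at 0.93 (SE 0.41). The summed crypt stem cell genes spanned 156 to 390.3 CPM in female WT and 398 to 569 CPM in female Slfn3KO mice. The part of crypt content in the Paneth differences was not tested. The ratio of the summed Paneth genes to the summed stem cell genes was 8.48, 9.41, 17.8 and 8.88 in female WT and 25.1, 26.4, 18 and 18.8 in female Slfn3KO mice. The female groups did not overlap in this ratio, and female WT 3 lay just under female Slfn3KO 3. Taken gene by gene, 4 of 10 members (Defa30, Lyz1, Ang4 and Itln1) had no overlap of this ratio, against 0.171% of genes. In males, whose groups overlapped, the ratio was 20.95, 13.7, 6.61 and 12.5 in WT and 11.2, 21.04, 10.02 and 19.8 in Slfn3KO mice.

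**Figure D3:**
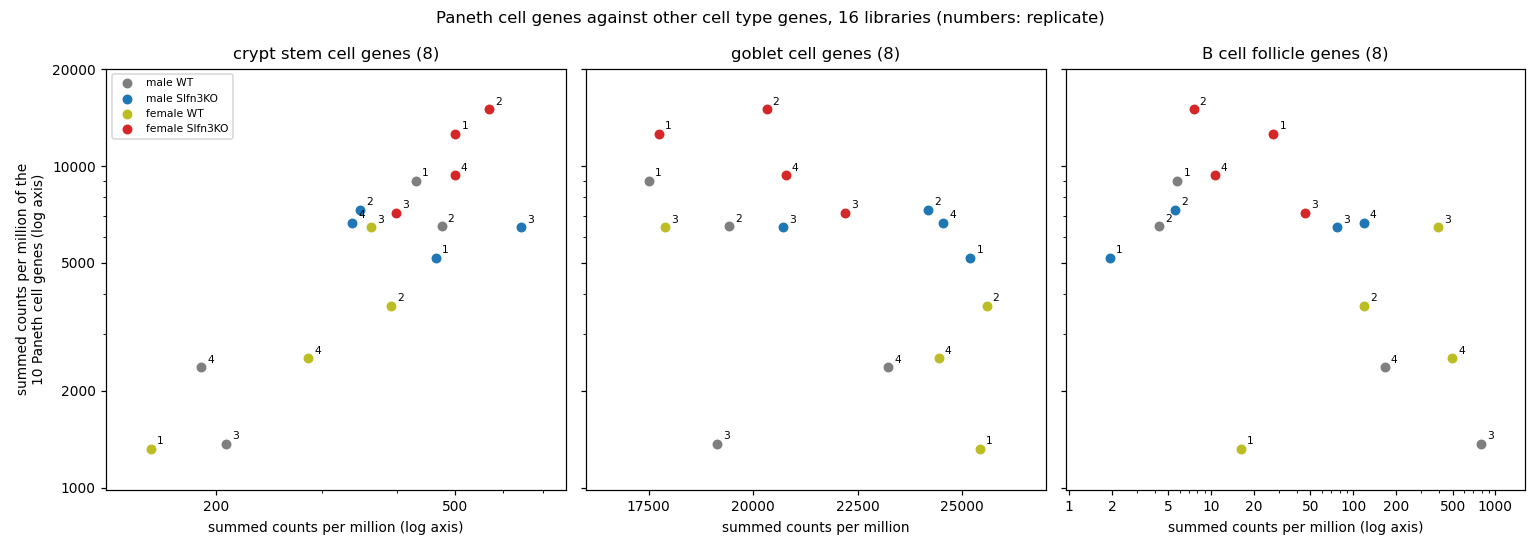
Summed CPM of the 10 Paneth cell genes (vertical, log axis) against the summed CPM of 8 crypt stem cell genes, 8 goblet cell genes and 8 B cell follicle genes in the 16 libraries, coloured by group with the replicate number beside each point. The libraries lowest in Paneth genes, female WT 1 and male WT 3, are also among the 3 lowest in stem cell genes, and male WT 3 is the highest in B cell genes.

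Markers of other cells were read for the whole lists. All 8 B cell follicle genes were lower in Slfn3KO mice, each with an unadjusted edgeR p under 0.05 (as 4.99% of all genes, at least 1.5-fold lower) and none called, at a median log2 fold change of -3.00, between -2.36 (Cd79b) and -3.15 (Cr2). Without the WT libraries numbered 3 and 4 the pooled median was 0.08, made of opposite values: 3.90 in males, with 8 of 8 genes higher, and -1.59 in females, with 8 of 8 lower. The medians of the 10 Paneth genes in those fits were -0.30 in males and 2.19 in females. Cd79a, the B cell receptor chain, was at -2.65 (SE 0.98). Their summed level was 4.31 to 789 CPM in WT and 1.95 to 119 CPM in Slfn3KO mice, highest in male WT 3, female WT 4 and female WT 3. Female WT 1, with the lowest summed Paneth level (1320 CPM), had 16.2 CPM of B cell genes, within the Slfn3KO range. The part of lymphoid tissue in the Paneth differences was not tested. Of 8 goblet cell genes 5 were higher, with a median of 0.09, from -0.08 (Zg16) to 0.84 (Retnlb), and Muc2, the main mucin, was at 0.13 (SE 0.11). All 7 distal enterocyte genes were lower, with a median of -0.24, from -0.31 (Amn) to -0.04 (Cubn), and Fabp6, the ileal bile acid carrier, was at -0.24 (SE 0.42). When WT 3 and 4 of both sexes were left out, 5 of 7 were higher (median 0.09). Of 7 proximal enterocyte genes 2 were higher (median -0.75), from -1.68 (Lct, the lactase of more proximal gut) to 0.84 (Slc40a1). Their median was 0.28 in males and -1.82 in females, where Lct was at -4.04, and their summed level was highest in female WT 1 (4929 CPM), the library lowest in Paneth genes. The part of these proximal genes in the female Paneth difference was not tested. Macrophage genes had a median of -0.19 over 7 genes, between Lyz2 and Adgre1 (0.00), and smooth muscle genes a median of 0.56 over 5, from 0.03 (Des) to 0.99 (Cnn1). Smooth muscle genes had a median of -0.91 in males (0 of 5 higher) and 1.67 in females (4 of 4 tested higher). Without the WT libraries numbered 3 and 4, the pooled median was 1.87 for smooth muscle and 0.18 for macrophage genes, with 7 of 7 macrophage genes higher, and 0.43 for crypt stem cell genes. None of these genes was called by edgeR in the pooled, male or female fits. For the female minus male difference without the WT libraries numbered 3 and 4, 1 goblet cell gene and 1 distal enterocyte gene were called. The pancreatic acinar genes, read because colipase is also a pancreatic product, were at 0.17 CPM in sum at most.

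Within the alpha-defensin family, all Defa rows together took 0.434%, 0.274%, 0.0716% and 0.106% of the counts in male WT 1 to 4, and 0.0559%, 0.205%, 0.423% and 0.125% in female WT 1 to 4. They took 0.251% to 0.382% in male Slfn3KO mice and 0.408% to 1.01% in female Slfn3KO mice. Female WT 3 thus exceeded female Slfn3KO 3, so the female ranges overlapped. Defa24 made up 46.7% to 53.1% of the Defa counts in every library.

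Defa27, a rarer defensin, was at 25.6 CPM in male WT 1, 14.5 CPM in male WT 2 and 13.8 CPM in male Slfn3KO 1, and at 0 to 0.344 CPM in the other 13 libraries. Defa35 was at 81.6, 67.1 and 27.4 CPM in the same 3 libraries, and at 0.552 to 8.17 CPM in the others. Both genotypes were among the 3 libraries, and all 3 were labelled male. In these 3 libraries Defa26 was 1.19% to 1.46% of Defa counts, against 0.550% to 0.782% elsewhere, and Defa21 was 10.7% to 11.6%, against 13.9% to 18.6% elsewhere. The libraries were grouped after their values were seen, so no test was made.

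**Figure D4:**
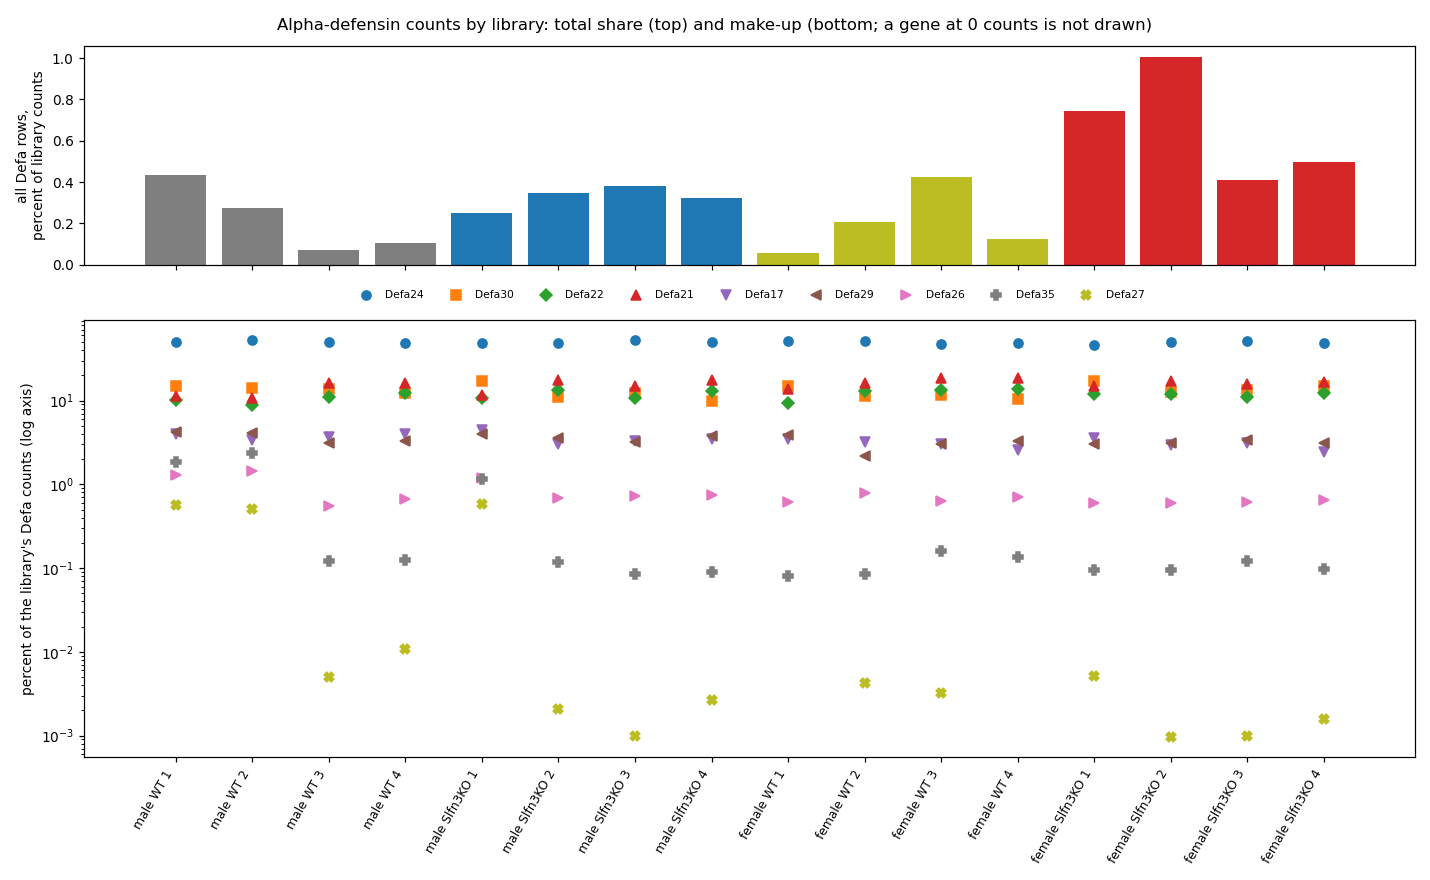
Share of each library's counts that fell on all Defa rows (top, percent) and the share of those Defa counts on 9 genes (bottom, percent, log axis; a gene at 0 counts is not drawn), for 16 libraries in order of group and replicate. Defa24 stays between 46.7% and 53.1%, while Defa27 and Defa35 are high in male WT 1, male WT 2 and male Slfn3KO 1 alone.

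The promoters of 2 defensins are shown because the 2 genes varied together with the other members over the libraries and the table of RefSeq promoters (GRCm38.p6) gives windows of equal length. It held 7 of the 10 members and none of Defa17, Defa24 and Defa29. The 250 bases before the start were searched on both strands for CTTTGAA or CTTTGAT and also CTTTGTA or CTTTGTT, the letters bound by TCF factors of the Wnt pathway, and for TATAAA. The motifs do not overlap in the sequences shown, and capitals mark every match.
Defa22 (chr8:21162027-21162276, plus strand): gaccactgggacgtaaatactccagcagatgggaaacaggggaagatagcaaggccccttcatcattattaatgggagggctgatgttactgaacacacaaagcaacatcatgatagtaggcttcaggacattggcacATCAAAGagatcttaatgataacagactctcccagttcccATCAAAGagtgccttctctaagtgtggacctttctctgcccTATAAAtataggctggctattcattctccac
Defa30 (chr8:21134400-21134649, plus strand): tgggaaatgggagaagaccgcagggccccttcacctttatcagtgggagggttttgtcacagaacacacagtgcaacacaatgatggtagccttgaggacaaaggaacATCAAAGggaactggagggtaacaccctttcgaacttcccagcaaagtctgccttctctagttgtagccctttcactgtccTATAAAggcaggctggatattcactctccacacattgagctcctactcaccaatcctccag
Defa22 held the TCF letters 112 and 72 bases before its start and TATAAA 31 bases before it. Defa30 held the TCF letters 142 and TATAAA 61 bases before its RefSeq start. That start (21134650) lay downstream of the gene start given above (21134642), so the end of its window fell within the gene. Of all 32851 promoters in the table, 14.8% held the TCF letters and 12.4% TATAAA. In the windows before the starts of Lyz1, Ang4, Itln1 and Mptx2 neither motif was found. Of the 2 starts listed for Mmp7, the upstream one held TATAAA at 123 and 26 bases and no TCF letters. The window of the downstream start (chr9:7692091-7692340) lay inside the gene and held the TCF letters. A match of letters is a description of the sequence and no evidence of binding.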

How the data were processed

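Ileum mucosa of 16 mice was sequenced by the study with 50-base single reads from a stranded library kit. The deposited table holds raw read counts per gene, made by the authors with STAR on mm10 and, per the file header, featureCounts 1.4.6 in its reverse-stranded setting without reads that aligned to several places. The methods of the study name HTSeq as the counter. No reads were reprocessed here. Totals were 20823279 to 30813117 counts, and 3 counts equalled 0.0974 to 0.144 CPM.

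Counts were fitted with edgeR 4.0.16 (R 4.3.3): TMM factors, filterByExpr, robust quasi-likelihood F test, labelled sex as a covariate in the pooled fit, and Benjamini-Hochberg adjustment over all genes tested. A call needed an adjusted p under 0.05 and at least a 1.5-fold difference. SE is that of the log2 fold change. DESeq2 1.42.0 was an alternative. Other alternatives were other scalings and filters, a replicate block, each mouse left out, and the WT libraries numbered 3 and 4 left out. CPM per library used TMM factors, and log2 CPM for correlations a prior count of 2. A statement that groups did not overlap compared CPM of single libraries.

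Named genes were the 10 members, the highest and lowest gene of each list with its best known genes, and the 8 genes most like the members. The members and all lists were chosen with earlier results of these data known. The script was tested on simulated data. The labels do not say which mice shared a litter. Deviations from the group means had correlations of 0.138 to 0.518 for the 4 same-numbered pairs of male WT and Slfn3KO libraries. For different-numbered male pairs they ran from -0.395 to 0.232. The ranges overlapped, so whether the numbers paired the male libraries is not known. Transcripts were compared in GENCODE M21, and promoters in RefSeq GRCm38.p6.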

Additional observations from a re-analysis of the deposited data

Results flagged for a closer look

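In groups of 4 mice, a value was singled out when its gap to the nearest other value made up more of the group's range than Dixon's critical value for 4 samples. Of 52 combinations of gene and group, 5 met it. The rate by chance is about 1 in 20 for independent, normally distributed values. These genes varied together, so the 5 were not read as more than chance gives. Ang4 was low in female WT 1, at 34.3 CPM against 72.5 to 79.5 CPM in the other 3 female WT libraries. Mptx2 was high in female WT 3, at 305 CPM against 50.04 to 82.8 CPM in the other 3. This is a library whose sex transcripts went against its label, and without the WT libraries numbered 3 and 4 the female log2 difference of Mptx2 was 3.15 in place of 1.95. Defa27 was high in male Slfn3KO 1, at 13.8 CPM, and in female Slfn3KO 1, at 0.344 CPM from 8 counts. Defa35 was high in male Slfn3KO 1, at 27.4 CPM against 3.04 to 4.40 CPM in the other 3 male Slfn3KO libraries.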

How the results depend on the processing

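The edgeR test called 0 of 10 members in each comparison, and also with every single mouse left out (0 to 0). DESeq2 called 1 pooled and 8 in females. Without adjustment the counts were 8 pooled, 10 in females and 1 for the female minus male difference. Without the WT libraries numbered 3 and 4, the difference between sexes had 4 calls, and the pooled count without adjustment was 2. Calls of all genes, in either direction, followed the tool. They were 0 by edgeR, against 54 pooled, 506 in females, 14 in males and 19 for the interaction by DESeq2. Of the pooled and female DESeq2 calls, 15 and 161 were higher. At any fold and in either direction, 1770, 2409, 542 and 1639 genes had an unadjusted edgeR p under 0.05. Counted as the members were, at least 1.5-fold higher, these were 244, 566, 110 and 475 genes. For that interaction, leaving out the 4 WT libraries gave 359 calls by edgeR.

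Directions held in all 240 pooled, 160 female and 230 interaction values, and reversed in 13 of 160 male values. Without male WT 3 and 4 the male differences were -0.25 (Defa17), -0.16 (Defa24), -0.34 (Defa29), -0.40 (Defa30), -0.35 (Lyz1), -0.60 (Mmp7) and -0.16 (Itln1). With 1 mouse left out, male values ran from -0.23 (without WT 4) to 0.62 (without WT 1) for Mmp7 and from -0.53 (without WT 3) to 0.57 (without WT 1) for Mptx2. The cause was not tested. With the replicate number as a block, male Mptx2 was 0.34, most male differences grew by over 1.5 times (Lyz1 to 0.68, Defa30 to 0.71), pooled Mptx2 was 1.44, and the block changed no call. Same-numbered female libraries did not deviate together (correlations -0.362 to 0.143). The 5 named alpha-defensins alone took 0.265% of counts in male Slfn3KO mice, against 0.326% for all Defa rows. Scaling by library totals moved the all-gene median to 0.14 in females and 0.13 for the interaction.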

Other observations

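Defa-ps7, a pseudogene in the alpha-defensin cluster, was one of the 3 genes for which each of 8 Slfn3KO libraries exceeded each of 8 WT libraries (0.0202% of 14822 genes). It was named for being the highest of the other Defa rows, at 0.1004 to 0.767 CPM in WT and 0.793 to 2.86 CPM in Slfn3KO mice, with an adjusted p of 0.327 by edgeR and 0.000567 by DESeq2 in the fits across all genes. Its level was near that of 3 counts (0.0974 to 0.144 CPM) in the lowest WT library.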
